A study of Drosophila melanogaster with 30 samples.

Results

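The genes described here encode the 4 core subunits of gamma-secretase in Drosophila melanogaster: Psn, nct, aph-1 and pen-2. They were taken by symbol from gene tables of the adult midgut, and all 4 were found among the 17488 genes of each table and among the 8335 genes tested. The tables hold FPKM, fragment counts corrected for transcript length and for the size of the library, for 30 libraries of poly(A) RNA. The flies were mated females, 10 to 12 days old and kept with males. Wild-type females (y[1]w[1]) ate a lipid-depleted diet, a diet with 4 times the control level of cholesterol (0.2%) or the control diet, and females of the strains Hr96[1] (TI{TI}Hr96[1]) and Hr96[2x] ate the control diet. Flies were moved to their food as pupae. Each of these 5 conditions was sampled in the posterior midgut (subregions p1-4) and the anterior midgut (a1-3) in 3 libraries of 30 to 50 dissected regions, which gave 10 groups. By its title the series asks how lipids in the food bear on Notch signalling in the adult gut. The labels do not give the genetic background or the lesion of the Hr96 strains, so an effect of the allele and one of the strain cannot be told apart. They also do not say whether the 3 replicates came from separate cultures. The p-values therefore measure only how far these libraries spread, which may be technical.

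Gamma-secretase is a protease that cuts proteins within the membrane. Notch is first cut outside the membrane by the metalloprotease Kuzbanian once a ligand such as Delta has bound, and gamma-secretase then frees its intracellular domain, which enters the nucleus and switches on genes such as those of the E(spl) complex. Presenilin, from Psn, carries the catalytic aspartates. Nicastrin, from nct, has a large glycosylated outer domain that receives substrates. Aph-1 is the multipass scaffold on which the complex is built, and Pen-2 is needed for the cut within presenilin that activates it. In the midgut, Notch decides whether the daughter of an intestinal stem cell becomes an enterocyte or an enteroendocrine cell.

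On dm6, aph-1 (FBgn0031458) lies at 2L:2766233-2767281 and has 990 exonic bases in 2 transcripts. The longer nct (FBgn0039234) lies at 3R:24851601-24854869, with 2906 exonic bases in up to 8 exons. Psn (FBgn0019947) lies at 3L:20432468-20435156, with 2048 exonic bases in up to 9 exons, and pen-2 (FBgn0053198) at 2R:18277439-18278762, with 1181 exonic bases. All 4 genes are on the plus strand. The library kit does not mark strand, and 3 of the genes share exonic bases with a gene on the other strand: pen-2 shares 565 bases with sbb, nct shares 374 with HdacX and Psn shares 47 with mRpL15. Reads from the shared stretches cannot be assigned to one gene by strand.

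Read counts were not used here and the depth is unknown. The deposited confidence limits of the members correspond to an error of 2.11% to 12.1% of the value in a library, widest for pen-2. Before comparison each library was divided by a factor that aligns its median gene with the others (scaled FPKM). Enterocyte markers summed to between 1179 and 2276 scaled FPKM in every library, and no marker of the listed cell types was at 0 in all libraries. The receptor gene Hr96 itself stood at 27.9 to 42.1 scaled FPKM in Hr96[1] libraries and at 63.8 to 80.3 in Hr96[2x] libraries, against 43.4 to 67.9 on the control diet. Its level was thus lower in all 6 Hr96[1] libraries than in every control library. In Hr96[2x] it was not lower, and anterior libraries stood at 69.3 to 80.0, above the anterior control libraries (43.4 to 67.9). The posterior groups of Hr96[2x] and control overlapped. Hr96 also stood above every control library on the lipid-depleted diet (96.1 to 179.4) and on high cholesterol (68.9 to 171.9). Control replicate 1 stood apart in both regions: its fat body markers summed to 1904 (posterior) and 1623 (anterior), against 107.7 to 208.6 in the other 4 control libraries. Hr96[1] replicate 1 carried Malpighian tubule markers at 288.9 (posterior) and 274.8 (anterior), against 0.182 to 52.4 in the other 4 libraries of the strain.

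The catalytic subunit gene was the most abundant of the 4. Psn ranged from 34.4 to 89.0 scaled FPKM over the 30 libraries, with a median of 52.8, and was the highest of the members in 30 of 30 libraries. The medians of aph-1, nct and pen-2 were 30.4, 26.4 and 23.9 scaled FPKM, with ranges of 19.0 to 65.2, 15.1 to 42.0 and 11.6 to 32.3. Within a library this order does not depend on the scaling. The lowest place was held by pen-2 in 13 of 15 posterior and 9 of 15 anterior libraries. The scaffold gene aph-1 lay above nct in 14 of 15 posterior libraries but in 7 of 15 anterior ones, and in the anterior control group it was the lowest of the 4 in every library. Group means spanned a 2.7-fold range for aph-1, 2.31-fold for nct, 2.07-fold for pen-2 and 2.03-fold for Psn. Most groups that are neighbours in the order of means overlapped. Of the 9 steps down each order, 1 was free of overlap for aph-1 (below the posterior lipid-depleted group). There was also 1 for pen-2 (below the anterior lipid-depleted group), 2 for nct and 1 for Psn. A step compares only the groups on either side of it. For pen-2 the anterior high-cholesterol group, with a higher mean than both Hr96 strains, reached down to 18.4, while Hr96[2x] libraries reached up to 21.7.

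**Figure D1:**
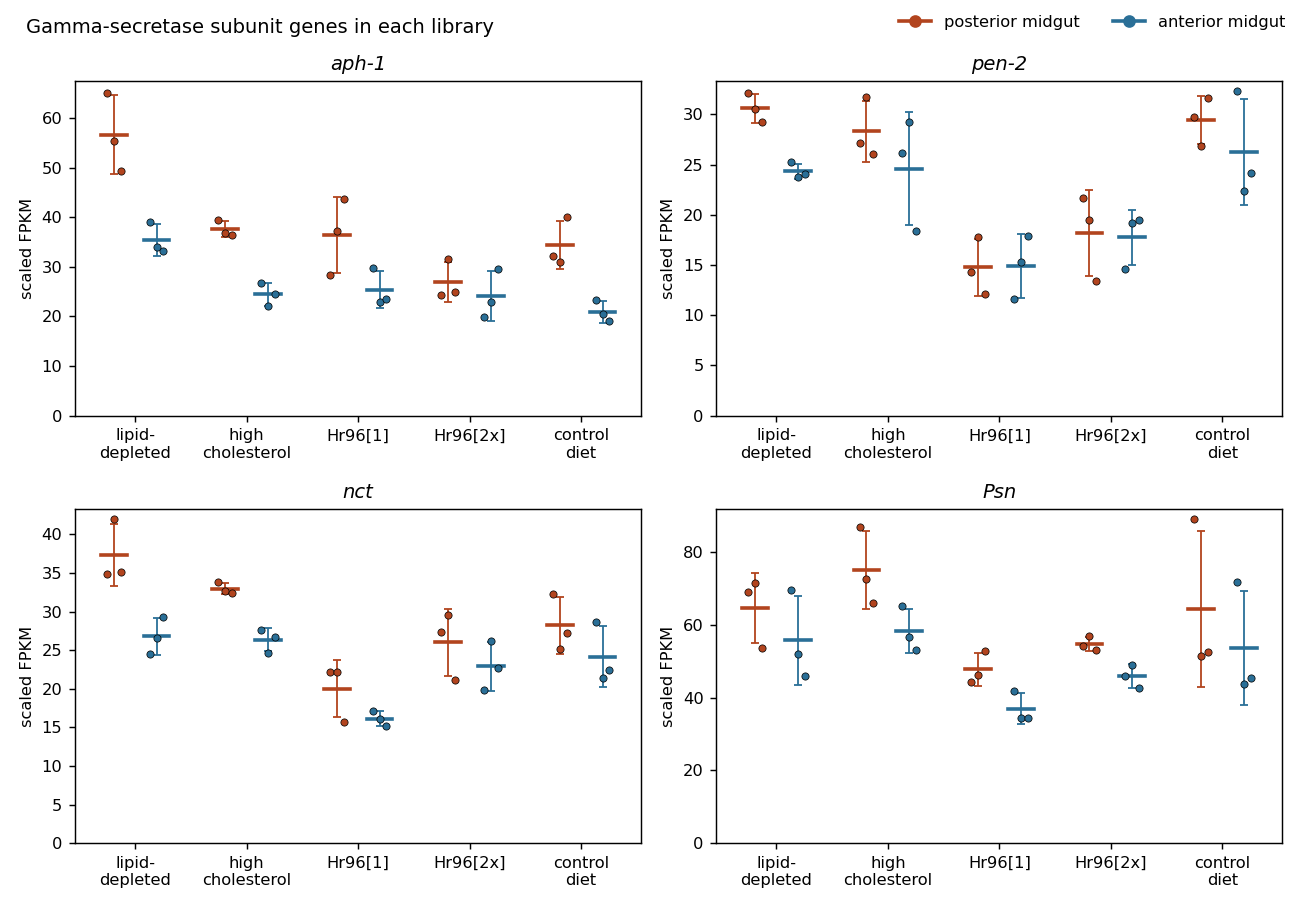
Scaled FPKM of Psn, nct, aph-1 and pen-2 in each of the 30 libraries (points), with the mean and SD of each group of 3 (bars); within each condition the posterior midgut is left of the anterior. The aph-1 points of the lipid-depleted diet reach 65.2, and the pen-2 points of both Hr96 strains lie between 11.6 and 21.7.

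Between regions, aph-1, nct and Psn were higher in the posterior midgut, and aph-1 differed most. The question of the region comparison is how the subunit genes are distributed along the gut. On the control diet aph-1 measured 32.3, 31.0 and 40.0 scaled FPKM in posterior libraries, against 23.3, 20.5 and 19.0 in anterior libraries. The groups did not overlap; 16.9% of all tested genes were likewise higher without overlap there. The log2 difference was 0.69 (SE 0.163, limma adjusted p = 0.00456). Averaged over the 5 conditions it was 0.52 (SE 0.0729, adjusted p = 2.85e-06), a 1.44-fold level on the log2(scaled FPKM + 1) scale, and it was called in 40 of 40 other settings. The same mean difference was 0.29 for nct (SE 0.0654, adjusted p = 0.000854) and 0.29 for Psn (SE 0.0894, adjusted p = 0.0113). The nct difference was called in 40 of 40 other settings and that of Psn in 39 of 40, with an adjusted p of 0.117 when replicates 2 and 3 of each group were averaged. For pen-2 it was 0.14, with a 95% interval of -0.03 to 0.32 (adjusted p = 0.181). Thus 3 of 4 members were called higher in the posterior midgut over the 5 conditions, where 21.8% of all tested genes were. In bulk tissue, more cells of a type and more RNA per cell cannot be told apart.

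Within single conditions fewer members were called. On the lipid-depleted diet 2 of 4 were higher in the posterior midgut, against 5.41% of tested genes. There aph-1 measured 65.2, 55.3 and 49.4 in posterior and 39.1, 33.9 and 33.1 in anterior libraries, a log2 difference of 0.66 (adjusted p = 0.00895). On the same diet nct measured 34.8, 42.0 and 35.1 in posterior and 24.5, 26.6 and 29.3 in anterior libraries, a log2 difference of 0.46 (adjusted p = 0.0412). On that diet aph-1, nct and also pen-2 were higher without overlap, as were 15.4% of all tested genes. On the control diet aph-1 was the 1 member of 4 called higher, against 6.87% of tested genes. The same held on the high-cholesterol diet, where it measured 39.4, 36.8 and 36.4 in posterior and 26.7, 22.1 and 24.5 in anterior libraries (log2 0.60, adjusted p = 0.0107; 8.66% of tested genes called higher). In Hr96[1] it was again the 1 called member, at 28.4, 37.2 and 43.6 in posterior and 29.7, 22.9 and 23.6 in anterior libraries, which overlap (log2 0.49, adjusted p = 0.0464; 5.95% of tested genes called higher). In Hr96[2x] no member was called by limma, and none had an unadjusted p under 0.05, against 2477 of the 8335 tested genes. There 8.37% of tested genes were called higher, and aph-1 differed by log2 0.17 with a 95% interval of -0.17 to 0.51. Psn, though not called, was higher without overlap on high cholesterol, in Hr96[1] and in Hr96[2x], as were 16.7%, 10.8% and 15.8% of all tested genes. On high cholesterol aph-1 and nct were also higher without overlap.

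Several of these single-condition calls rested on 1 library or on the fit. Replicates 2 and 3 were the closest pair of libraries in 8 of 10 groups, so an alternative averaged them into 1. Between regions aph-1 then had an adjusted p of 0.0949 on the control diet, 0.0929 on the lipid-depleted diet, 0.108 on high cholesterol and 0.495 in Hr96[1], and nct one of 0.151 on the lipid-depleted diet. With only the compared groups fitted it was 0.268 for aph-1 in Hr96[1] and 0.0749 for nct on the lipid-depleted diet. For nct on the lipid-depleted diet the adjusted p was 0.155 or 0.0973 without anterior replicate 1 or 2, and 0.199 or 0.0664 without posterior replicate 2 or 3. For aph-1 it was 0.0620 on high cholesterol without anterior replicate 2, and in Hr96[1] 0.188 or 0.161 without anterior replicate 2 or 3 and 0.135 or 0.206 without posterior replicate 2 or 3. With the 2 regions of a condition paired by replicate number as a block, nct (adjusted p = 0.0462) and Psn (0.0367) were also called higher in the posterior midgut of Hr96[1]. The scaling bears on the size of every region difference. On FPKM as deposited the median of all genes was 0.52 higher in the posterior midgut on the log2 scale, and the 4 members were 0.73 to 1.11 higher, all 4 called. The call of pen-2 in the region comparison over 5 conditions was made on that scale and under none of the other 39 settings.

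Markers of other cells also differed between the regions. All 11 tested visceral muscle markers were higher in the posterior midgut, with summed levels of 517.9 to 1928 in posterior and 382.5 to 1117 scaled FPKM in anterior libraries, and 4 of 9 stem cell and enteroblast markers were higher. Of 12 enteroendocrine markers 5 were higher and 5 lower, with larger differences than any subunit gene; the peptide genes AstA and CCHa1 were higher by log2 5.86 and 3.90, and CG13565 and CCHa2 differed by -3.09 and -2.38. Of 4 enterocyte markers nub was higher (0.34) and Myo31DF lower (-0.16), and of 5 Malpighian tubule markers 1 was higher. The part of these cells in the subunit differences was not tested. Among genes that handle membrane proteins in the endoplasmic reticulum, where the complex is assembled, the direction was the opposite. Of 18 tested genes for translocation, signal peptide cleavage and glycosylation 14 were lower in the posterior midgut, with a median log2 difference of -0.61, against 23.4% of all tested genes and a median of 0.00. Examples are the translocon gene Sec61alpha (log2 -0.76, adjusted p = 3.26e-06), its partner TRAM (-1.61, adjusted p = 7.07e-12) and the signal peptidase subunit twr (-0.70, adjusted p = 1.7e-06). Signal peptide peptidase, Spp, an aspartyl protease related to presenilin, was also lower (-0.69, adjusted p = 1.69e-09). The rhomboid proteases rho (0.74, adjusted p = 0.0095) and rho-4 (0.59, adjusted p = 5.68e-07) were higher. The list of other intramembrane proteases held 6 tested genes, and 45.2% of all tested genes were called in this comparison.

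**Figure D2:**
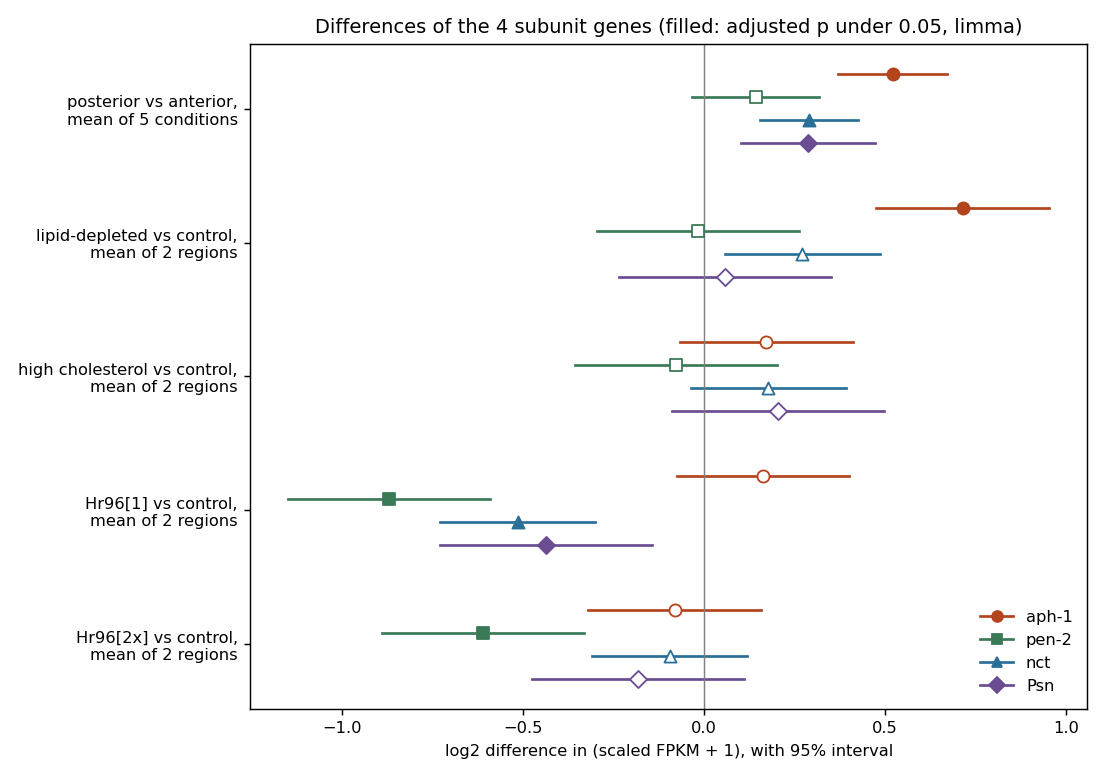
Log2 differences of the 4 subunit genes with 95% intervals, for the posterior against the anterior midgut over 5 conditions and for each diet or strain against control over both regions; filled symbols passed an adjusted p of 0.05. aph-1 is filled for the region and the lipid-depleted diet, pen-2 for both Hr96 strains, and nct and Psn for the region and Hr96[1].

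On the lipid-depleted diet aph-1 rose in both regions, and no other subunit gene was called. Anterior libraries measured 39.1, 33.9 and 33.1 scaled FPKM on the lipid-depleted diet, against 23.3, 20.5 and 19.0 on the control diet. Posterior libraries measured 65.2, 55.3 and 49.4 on the lipid-depleted diet, against 32.3, 31.0 and 40.0 on the control diet. All lipid-depleted libraries lay above all control libraries of their region, as they did for 9.84% of all tested genes in the anterior and 9.38% in the posterior gut. The log2 difference was 0.73 in the anterior (SE 0.163, adjusted p = 0.013) and 0.70 in the posterior midgut (SE 0.163, adjusted p = 0.0136), and 0.72 over both (SE 0.115, adjusted p = 0.000253). The last is a 1.64-fold level, was called in 23 of 23 other settings and lay between 0.64 and 0.87 in them. In each of these tests 1 of 4 members was called higher, where 1.66%, 1.39% and 4.01% of all tested genes were, in the anterior, the posterior and over both.

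The other subunit genes moved less on this diet. The nearest to a call was nct, at 34.8, 42.0 and 35.1 in posterior libraries on the lipid-depleted diet and 32.2, 25.1 and 27.2 on the control diet, without overlap. Over both regions nct differed by log2 0.27 (95% interval 0.06 to 0.49, adjusted p = 0.112), and it was called in 2 of 23 other settings, after quantile normalization (0.025) and without control replicate 1 (0.0361). Psn differed by 0.06 (95% interval -0.24 to 0.35) and pen-2 by -0.02 (-0.29 to 0.26). The single-region calls of aph-1 were lost without anterior control replicate 2 (adjusted p = 0.0622) or 3 (0.0577) or anterior lipid-depleted replicate 1 (0.0612), and without posterior control replicate 1 (0.0756) or 2 (0.0788) or posterior lipid-depleted replicate 1 (0.0691). They were also lost with replicates 2 and 3 averaged (anterior 0.193, posterior 0.122) and with only the compared groups fitted (0.0576 and 0.102). Visceral muscle markers were lower on this diet in 5 of 11 cases, against 4.96% of tested genes, with sums of 399.5 to 407.4 against 558.7 to 635.0 in the anterior and 517.9 to 801.2 against 796.6 to 947.1 in the posterior midgut of control flies. Of 4 enterocyte markers Myo31DF (log2 -0.27) and Myo61F (-0.48) were lower, and of 12 enteroendocrine markers AstA (1.03) and CCHa1 (1.10) were higher. Of 5 fat body markers fon was lower (-1.43), and control replicate 1 had the highest fat body sum of the control libraries in each region. Of 9 stem cell and enteroblast markers limma called 0, and 3 had an unadjusted p under 0.05, as did 1743 of the 8335 tested genes over both regions. Sums of these markers were 52.6 to 86.7 against 45.3 to 64.1 in the anterior and 86.1 to 120.3 against 39.8 to 90.1 in the posterior midgut. The part of these cells in the rise of aph-1 was not tested.

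Elsewhere in the Notch pathway 3 of 25 tested genes were higher on the lipid-depleted diet over both regions and 0 lower, beside 4.01% higher and 4.96% lower among all tested genes. The 42 listed genes cover ligands, receptor maturation, cleavage, trafficking, nuclear factors and the E(spl) targets, and 38 were matched. The Notch glycosyltransferase fng was higher by log2 0.93 (adjusted p = 6.89e-05), the ubiquitin ligase Nedd4 by 0.43 (adjusted p = 0.0271) and the kinase Nak by 0.42 (adjusted p = 0.0441). The receptor gene N differed by 0.31 (adjusted p = 0.306) and the ligand gene Dl by 0.35 (adjusted p = 0.26). Of the 4 tested E(spl) genes limma called 0, and 0 had an unadjusted p under 0.05, against 1743 of the 8335 tested genes. Among other intramembrane proteases 1 of 6 was called, the signal peptide peptidase-like gene SppL (log2 0.41, adjusted p = 0.0148).

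The high-cholesterol diet gave no call for any subunit gene. Psn measured 86.7, 72.4 and 65.9 in posterior libraries on high cholesterol, against 89.0, 51.4 and 52.4 on the control diet, and 65.0, 56.7 and 53.1 in anterior libraries, against 71.7, 43.6 and 45.4. The groups overlapped in both regions, since control replicate 1 was the highest control library. Over both regions the log2 difference was 0.20 for Psn (95% interval -0.09 to 0.50), 0.18 for nct (-0.04 to 0.39), 0.17 for aph-1 (-0.07 to 0.41) and -0.08 for pen-2 (-0.35 to 0.20). In posterior libraries nct was higher without overlap, at 33.8, 32.7 and 32.4 on high cholesterol, against 32.2, 25.1 and 27.2 on the control diet, as were 7.15% of all tested genes. With limma 0 of 4 members were called, and 0 had an unadjusted p under 0.05. Of all tested genes 3.52% were called in the anterior, 0.876% in the posterior and 8.41% over both. An unadjusted p under 0.05 was found for 1363, 827 and 1754 of the 8335 tested genes, in this order. Without control replicate 1 in both regions Psn was higher by log2 0.45 (adjusted p = 0.012). When FPKM were left unscaled, the log2 difference was -0.34 for the median of all genes on this diet and between -0.46 and -0.19 for the 4 members, and pen-2 was called (-0.46, adjusted p = 0.0464). The signs of Psn, nct and aph-1 thus turn with the scaling.

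In Hr96[1] flies pen-2, nct and Psn were lower than in wild-type flies, while aph-1 was not called. The fall of pen-2 was the deepest. It measured 14.3, 17.8 and 12.2 scaled FPKM in posterior libraries of Hr96[1], against 29.8, 26.9 and 31.6 in wild type, and 11.6, 15.3 and 17.9 in anterior libraries of Hr96[1], against 32.3, 22.4 and 24.1. No library of the strain reached a wild-type library of its region, which held for 15.5% of all tested genes in the posterior and 20.4% in the anterior gut. The log2 difference was -0.96 in the posterior (SE 0.19, adjusted p = 0.00145), -0.78 in the anterior (SE 0.19, adjusted p = 0.0051; 0.0631 with only the compared groups fitted) and -0.87 over both regions (SE 0.134, adjusted p = 3.42e-05), a level of 0.547 times that of wild type. It was called over both regions in 23 of 23 other settings. These settings include a block of same-numbered libraries of the 2 regions, with an estimated correlation of 0.502. The main fit takes such libraries as independent, so its errors over both regions may be too small. Without the anterior Hr96[1] library that carried Malpighian tubule markers the difference was -0.79 (adjusted p = 0.000126), and without the posterior one -0.86 (adjusted p = 0.000107).

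The gene for nicastrin followed. In posterior libraries nct measured 22.2, 22.1 and 15.8 in Hr96[1], against 32.2, 25.1 and 27.2 in wild type, and in anterior libraries 17.1, 16.2 and 15.1 in Hr96[1], against 28.7, 21.4 and 22.5. These groups did not overlap either. The log2 difference was -0.48 in the posterior (adjusted p = 0.0305), -0.54 in the anterior (adjusted p = 0.00976) and -0.51 over both regions (SE 0.103, adjusted p = 0.000579), the last called in 23 of 23 other settings. In the anterior the call was lost without control replicate 1 (0.0662), and in the posterior without control replicate 1 (0.143) or 3 (0.0625) or Hr96[1] replicate 3 (0.210). With only the compared groups fitted nct had an adjusted p of 0.211 (posterior) and 0.0546 (anterior), and with replicates 2 and 3 averaged one of 0.135 in the posterior midgut. Because nct lies 170 kb from Hr96 on 3R, the genes within 250 kb of Hr96 were counted, a window chosen after the values were seen. The 75 tested genes there include nct itself, which adds to each of the counts of lower genes. Of the 75, 38.7% were called in Hr96[1] over both regions, and 16 of the 75 were called lower. Among all tested genes 35.4% were called, and 17.7% of all were called lower. In the posterior midgut 20% of the 75 were called and 9 of the 75 were called lower, against 12.9% and 7.89% of all tested genes. In the anterior midgut 26.7% were called and 13 of the 75 were called lower, against 23.9% and 12.0% of all tested genes. Whether the window differs from the rest of the genome was not tested.

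For Psn the fall was smaller and was called in 18 of 23 other settings. Posterior libraries measured 44.2, 46.3 and 52.7 in Hr96[1], against 89.0, 51.4 and 52.4 in wild type, and anterior libraries 41.8, 34.5 and 34.4 in Hr96[1], against 71.7, 43.6 and 45.4. Psn was thus highest in control replicate 1, the libraries with high fat body markers. Over both regions the log2 difference was -0.44 (SE 0.141, adjusted p = 0.0198). It was -0.32 without the anterior control replicate 1 (adjusted p = 0.0719), -0.31 without the posterior one (0.0712) and -0.20 without both (0.206). With those libraries kept, the call was also lost with only the compared groups fitted (adjusted p = 0.0791) and with replicates 2 and 3 averaged (0.0686). Without both, pen-2 and nct were still called over both regions.

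The scaffold gene showed no such fall. In Hr96[1] aph-1 measured 28.4, 37.2 and 43.6 in posterior libraries, against 32.3, 31.0 and 40.0 in wild type, and 29.7, 22.9 and 23.6 in anterior libraries, against 23.3, 20.5 and 19.0. The groups overlapped in both regions, and the log2 difference over both was 0.16 (95% interval -0.08 to 0.40, adjusted p = 0.284). In all, 3 of 4 members were called lower over both regions, where 17.7% of tested genes were called lower and 17.7% higher. In single regions 2 of 4 were called lower, against 7.89% of tested genes in posterior and 12.0% in anterior libraries.

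Markers of other cells also differed in Hr96[1]. Of 11 visceral muscle markers 8 were higher in Hr96[1], with sums of 1403 to 1928 against 796.6 to 947.1 in the posterior and 1050 to 1117 against 558.7 to 635.0 in the anterior midgut. Of 5 fat body markers 3 were lower, and control replicate 1 had the highest fat body sum of the control libraries in each region. Of 4 enterocyte markers 3 were lower. Higher were also the Malpighian tubule markers Oatp58Db (adjusted p = 0.00683) and Oatp58Dc (log2 2.21), 2 of 5, the enteroendocrine markers Tk (log2 1.42) and 7B2 (0.65), while sc was lower (-0.49) among 12, the stem cell marker esg (0.63), 1 of 9, and the 1 tested trachea marker Gasp (0.75). The 1 tested copper cell marker, Vha100-4, was higher in the anterior midgut (3.26). The part of these cells in the subunit differences was not tested. Of 25 Notch pathway genes 2 were higher and 6 lower, 8 in all, beside 35.4% called among all tested genes (17.7% in each direction). The lower ones include the ligase mib1, which activates ligands (log2 -0.76, adjusted p = 3.31e-06), the furin protease gene Fur1 (-0.70, adjusted p = 0.00279), the Notch inhibitor numb (-0.64, adjusted p = 0.0101) and Nak (-0.54, adjusted p = 0.00265). Higher were fng (0.50, adjusted p = 0.00595) and E(spl)m3-HLH (0.80, adjusted p = 0.0278). Among gamma-secretase substrates the amyloid precursor-like gene Appl was higher (0.79, adjusted p = 0.00694) and the netrin receptor gene fra lower (-0.60, adjusted p = 0.0225). Of 6 other intramembrane proteases 2 were lower, rho-4 (-0.56, adjusted p = 0.000813) and the site-2 protease gene S2P (-0.37, adjusted p = 0.00757).

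In Hr96[2x] flies pen-2 was the 1 subunit gene called lower. Posterior libraries measured 21.7, 19.5 and 13.4 in Hr96[2x], against 29.8, 26.9 and 31.6 in wild type, and anterior libraries 14.6, 19.2 and 19.5 in Hr96[2x], against 32.3, 22.4 and 24.1. The groups did not overlap in either region, as for 18.2% of all tested genes in the posterior and 18.4% in the anterior gut that were lower. The log2 difference was -0.69 in the posterior (SE 0.19, adjusted p = 0.0194), -0.53 in the anterior (SE 0.19, adjusted p = 0.0534) and -0.61 over both regions (SE 0.134, adjusted p = 0.00151), a level of 0.655 times that of wild type. It was called over both regions in 23 of 23 other settings. In the posterior midgut pen-2 was no longer called without Hr96[2x] replicate 3 (0.123) or without control replicate 1 (0.0507) or 3 (0.0828), nor with replicates 2 and 3 averaged (0.122) or only the compared groups fitted (0.0888), and in the anterior midgut it was called without control replicate 2 (0.0491).

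None of the other subunit genes was called in Hr96[2x] on scaled FPKM. In posterior libraries aph-1 measured 24.4, 31.6 and 25.0, against 32.3, 31.0 and 40.0 in wild type. Its log2 difference there was -0.34 (95% interval -0.677 to -0.00183, limma adjusted p = 0.212). Psn measured 54.2, 56.9 and 52.9 in posterior libraries, against 89.0, 51.4 and 52.4 in wild type, and 45.9, 49.1 and 42.7 in anterior libraries, against 71.7, 43.6 and 45.4. Over both regions the log2 difference was -0.18 for Psn (95% interval -0.48 to 0.11), -0.09 for nct (-0.31 to 0.12) and -0.08 for aph-1 (-0.32 to 0.16). Whether nct and Psn differ between the strains was not tested. Of 4 members 1 was called lower over both regions and in the posterior midgut, against 15.1% and 7.08% of tested genes. In the posterior midgut 2 members had an unadjusted limma p under 0.05, as did 1940 of the 8335 tested genes. In the anterior midgut limma called 0 members, and 1 had an unadjusted p under 0.05. There 9.77% of tested genes were called lower, and 2535 of the 8335 had an unadjusted p under 0.05. On FPKM as deposited the median of all genes differed by -0.25 on the log2 scale in this strain, and nct (-0.40, adjusted p = 0.0374) and Psn (-0.50, adjusted p = 0.0194) were called as well.

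Of 25 Notch genes 4 were higher and 3 lower in Hr96[2x], about the share among all tested genes, of which 12.5% were higher and 15.1% lower. Higher were kuz, for the protease that makes the cut before gamma-secretase (log2 0.79, adjusted p = 0.0166), Dl (0.50, adjusted p = 0.0401), the trafficking gene spdo (0.66, adjusted p = 0.0029) and E(spl)m6-BFM (1.33, adjusted p = 0.00241). Lower were fng (-0.83, adjusted p = 5.81e-05), mib1 (-0.73, adjusted p = 6.07e-06) and numb (-0.54, adjusted p = 0.0333). The enteroendocrine markers stood out beside them. Of 12 tested 9 were higher, with sums of 985.8 to 1328 against 223.5 to 365.1 in the posterior and 632.4 to 706.5 against 161.4 to 393.5 in the anterior midgut. Of 5 fat body markers 3 were lower, and control replicate 1 is the high library among them. The 1 tested trachea marker Gasp was lower (log2 -0.84) and the 1 tested neuron marker nSyb higher (0.58). Of 9 stem cell and enteroblast markers 2 were higher and 1 lower. The 2 higher ones are Dl and spdo, already counted among the Notch genes. The part of these cells in the fall of pen-2 was not tested.

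No difference of a response between the regions was called for a subunit gene. Of 16 such tests limma called 0, and 1 had an unadjusted p under 0.05. The shares of all tested genes called were 0.576% for the lipid-depleted diet, 0.024% for high cholesterol, 0.408% for Hr96[1] and 0.360% for Hr96[2x]. An unadjusted p under 0.05 was found for 456, 217, 658 and 455 of the 8335 tested genes, in this order. The rise of aph-1 on the lipid-depleted diet differed between posterior and anterior by -0.03 (95% interval -0.51 to 0.45). The 1 with an unadjusted p under 0.05 was aph-1 in Hr96[2x], with log2 differences of -0.34 (posterior) and 0.18 (anterior) from wild type (difference of responses -0.52, unadjusted p = 0.0351, adjusted p = 0.807).

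Ratios between subunit genes within a library show their balance without any scaling. They were compared over 6 pairs and 5 contrasts by permutation of library labels within strata, 2-sided, and 13 of the 30 tests passed at a Benjamini-Hochberg adjusted p of 0.05. With 400 arrangements, as for each contrast with control, no permutation p can fall below 0.005. These arrangements move the libraries of the 2 regions independently, although same-numbered libraries of both regions deviated together in most conditions. If they were moved together, no contrast with control could give a p below 0.1 and none could pass, so these p-values may be too small. The ratio of aph-1 to pen-2 averaged 1.63 (geometric mean) on the lipid-depleted diet, 2.05 in Hr96[1] and 1.42 in Hr96[2x], against 0.969 in control libraries (permutation test, adjusted p = 0.03, 0.03 and 0.0422). It averaged 1.60 in posterior and 1.22 in anterior libraries, and was higher in the posterior midgut in 5 of 5 conditions (permutation test, adjusted p = 0.03). The ratio of aph-1 to Psn was 0.752 on the lipid-depleted diet, 0.719 in Hr96[1] and 0.470 in control libraries (permutation test, adjusted p = 0.03 and 0.0375). That of nct to pen-2 was 1.37 in Hr96[2x], 1.22 in Hr96[1], 1.16 on the lipid-depleted diet and 0.940 in control libraries (permutation test, adjusted p = 0.03, 0.0462 and 0.0375). No contrast was called for nct over Psn, whose ratio lay between 0.427 and 0.532 in all conditions. No contrast with high cholesterol was called. The contrasts with control share the same 6 control libraries. Without control replicate 1, 0 of 30 ratio tests passed, with the lowest adjusted p at 0.06; fewer arrangements are then possible.

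**Figure D3:**
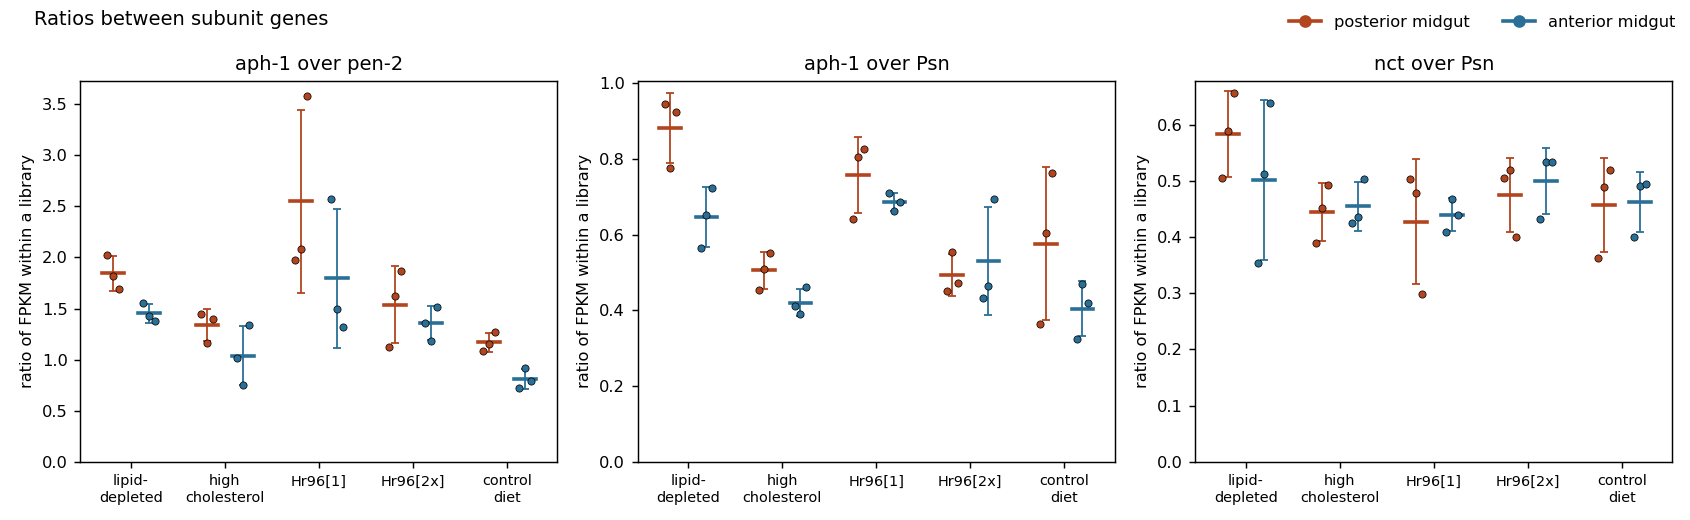
Ratios of FPKM within a library (points; mean and SD of 3 as bars) for aph-1 over pen-2, aph-1 over Psn and nct over Psn, by condition and region, posterior left of anterior. The first ratio is below 1 in the anterior control group, and nct over Psn stays between 0.299 and 0.657 in every library.

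Over the 10 group means the profiles of nct and Psn were most alike among the members (Pearson r = 0.93), followed by nct and pen-2 (0.86) and pen-2 and Psn (0.84). The scaffold gene was less like the other members, with r = 0.62 to nct, 0.53 to Psn and 0.42 to pen-2. Its r to them still exceeded that to 90.5%, 85.6% and 79.4% of the genes compared, in this order. These values describe 10 groups that share a scaling, and the means of Psn carry control replicate 1. Of the 6248 genes whose scaled FPKM averaged 5 or more, the profiles nearest to aph-1 were those of CG16953, sqh (the regulatory light chain of nonmuscle myosin), CG31715, CG3077 and l(1)G0232, with r from 0.93 to 0.96. The group means of CG16953 ran only from 27.9 to 36.8, while its anterior control libraries alone ran from 22.8 to 38.5. The nearest to pen-2 were the chloride channel gene ClC-b, CG42363, CG11141, CR45518 and kat80 (0.96 to 0.98). For nct they were CG9934, CG10915, inaE, CG6401 and CG17754 (0.95 to 0.99), and for Psn CG12121, the kinase gene Tao, CG11534, CG17754 and Cyp28a5 (0.95 to 0.98).

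One gene of the aph-1 set is also its neighbour. CG3077 lies 567 bases from the start of aph-1 and points the other way, at 2L:2763416-2765665 on the minus strand. It measured 15.0, 15.2 and 13.2 scaled FPKM in posterior libraries of the lipid-depleted diet, against 7.19, 7.84 and 7.64 on the control diet, and 7.01, 11.3 and 10.6 in anterior libraries, against 5.11, 4.30 and 6.06. The groups did not overlap, as for aph-1. Over both regions CG3077 was higher by log2 0.81 on this diet (adjusted p = 0.000536), and it was 0.56 higher in the posterior than in the anterior midgut over the 5 conditions (adjusted p = 1.83e-05). On the other side Taf10b, for a subunit of the general transcription factor TFIID, ends 4 bases from aph-1. In anterior libraries Taf10b measured 25.9, 18.4 and 21.0 on the lipid-depleted diet, against 15.3, 16.9 and 17.4 on the control diet, without overlap, and in posterior libraries 29.1, 23.7 and 21.4, against 18.6, 19.7 and 22.4, with overlap. Over both regions it differed by 0.32 on this diet (adjusted p = 0.115) and 0.15 between regions (adjusted p = 0.129), and was called in 0 of 22 comparisons, as was Taf10 beyond it.

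**Figure D4:**
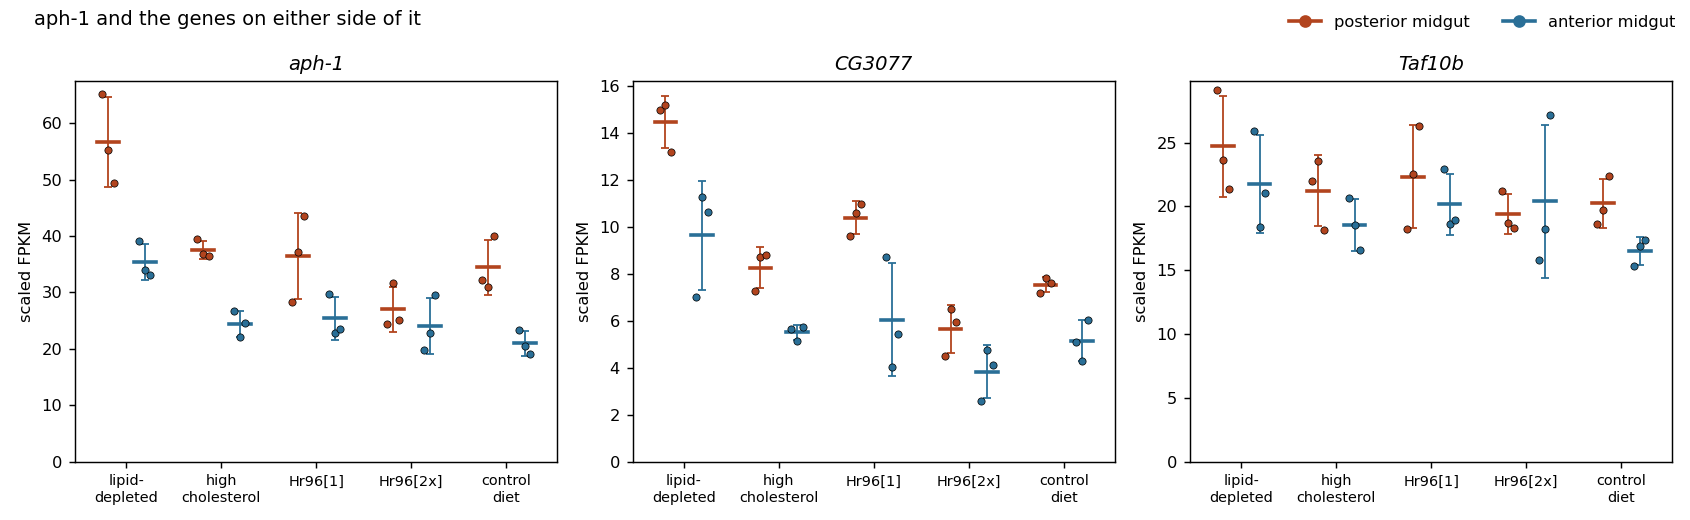
Scaled FPKM of aph-1, of the divergent CG3077 and of Taf10b in each library (points; mean and SD of 3 as bars), posterior left of anterior in each condition. The lipid-depleted libraries of aph-1 and CG3077 lie above the control libraries of their region, and those of Taf10b do so in the anterior midgut but overlap with control in the posterior midgut.

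Near pen-2 the gene on the same stretch and the gene beside it behaved differently. The overlapping sbb, a transcriptional regulator, differed by log2 0.08 in Hr96[1] and 0.37 in Hr96[2x] over both regions and was not called in either, and it was lower in the posterior than in the anterior midgut (-0.59, adjusted p = 8.64e-05). The nuclear lamina gene Ote, 261 bases upstream on the other strand, was lower in both strains, by -0.73 in Hr96[1] (adjusted p = 0.0259) and -0.80 in Hr96[2x] (adjusted p = 0.019). It measured 4.34, 4.54 and 5.63 in posterior libraries of Hr96[1] and 3.99, 3.45 and 6.30 of Hr96[2x], against 5.61, 6.28 and 10.9 in wild type, so that both strains overlapped with wild type there. In anterior libraries Ote measured 6.55, 2.28 and 1.85 in Hr96[1] and 3.19, 1.67 and 4.72 in Hr96[2x], against 5.54, 6.83 and 8.67 in wild type, so that Hr96[2x] lay wholly below it. Around the other members, mRpL15, for a mitochondrial ribosomal protein, overlaps Psn by 47 bases and was higher in both strains (0.40, adjusted p = 0.017, and 0.35, adjusted p = 0.0399). CG7006, 215 bases from nct, was higher in Hr96[1] (0.52, adjusted p = 0.0106), where nct was lower. HdacX, a histone deacetylase gene that overlaps nct, was called in 1 of 22 comparisons, higher in the posterior midgut (0.39, adjusted p = 0.0441).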

How the data were processed

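Per the submitters' processing notes, reads were handled with bcl2fastq 2.17.1.14, Bowtie2 2.2.9, TopHat2 2.1.1 and Cufflinks 2.2.1 on dm6 with BDGP6. Per the file headers, the authors deposited gene FPKM with confidence limits and a status, 1 table per library. The 103 genes with a failed estimate in any library were left out. FPKM is a share of a library, so libraries were brought to one scale by median-of-ratios factors, taken over 8584 genes above 0 in all libraries (1.03 to 1.45 in posterior, 0.537 to 1.20 in anterior libraries). The 8335 genes whose scaled FPKM averaged 1 or more were tested on log2(scaled FPKM + 1) with limma 3.58.1 in R 4.3.3, with 1 mean per group (10 groups), 20 residual degrees of freedom and a trended prior. Calls are at a Benjamini-Hochberg adjusted p under 0.05 over all tested genes, 2-sided, and every adjusted p of a gene is from limma. No count test was run, since the files hold no counts. The fit was tested on simulated data. Subunit ratios had permutation tests with up to 100000 arrangements. Python 3.11.15 read the files.

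The members and the gene lists were chosen with earlier results of these data known. Named genes are the 4 members, called list members (at most 4 per list and comparison), Notch genes with the smallest p, genes within 1 kb and the 5 most alike genes per member. Positions are those of the tables; the Ensembl annotation of the same build held 17183 of the 17488 gene IDs, 16837 of them with the same span, and gave the exons. No sequences are shown.

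Replicate numbers were checked for pairing. The main fit takes all libraries as independent, while the correlation within a block of 2 same-numbered libraries of a condition was estimated at 0.502. Errors of differences over both regions may thus be too small, and those between regions too large. Between the 2 regions of a condition all 3 same-numbered pairs correlated in their deviations from the group means by over 0.1 for the lipid-depleted diet, Hr96[1] and Hr96[2x], and 2 of 3 pairs did for the control and high-cholesterol diets; between a condition and control 7 of 24 pairs did.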

Additional observations from a re-analysis of the deposited data

How the results depend on the processing

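Of 1824 values recomputed, 1608 kept their direction and their side of the threshold, 64 lost and 34 gained a call, 1 turned its sign with a call, and 117 that were not called changed sign. Single-region and single-condition counts depend on the processing; over both regions or all conditions, aph-1 on the lipid-depleted diet, aph-1 and nct between regions, pen-2 and nct in Hr96[1] and pen-2 in Hr96[2x] were called under every setting tried. On FPKM as deposited, members called higher in the posterior midgut numbered 3 on the control diet (1 as reported), 3 on the lipid-depleted diet (2), 4 on high cholesterol (1), 4 in Hr96[1] (1), 4 in Hr96[2x] (0) and 4 over the 5 conditions (3). On that scale those called against control numbered 1 on high cholesterol over both regions (0), 3 in anterior Hr96[1] (2), 1 in posterior Hr96[1] (2), 3 in anterior Hr96[2x] (0) and 3 in Hr96[2x] over both (1). There the median of all genes differed by log2 0.52 between regions, 0.12 on the lipid-depleted diet, -0.34 on high cholesterol, -0.16 in Hr96[1] and -0.25 in Hr96[2x], and pen-2 turned to 0.68 between regions in Hr96[1] (adjusted p = 0.0183), against -0.01 as reported. Unscaled FPKM carry each library's composition, and the cause of these shifts was not tested.

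With replicates 2 and 3 averaged, the closest pair in 8 of 10 groups, which leaves fewer samples, the region counts were 0 on the control, lipid-depleted and high-cholesterol diets and in Hr96[1], and the counts against control 0 for the lipid-depleted diet in each region, 1 in posterior Hr96[1] and 0 in posterior Hr96[2x]. With only the compared groups fitted, also fewer samples, they were 1 for the region on the lipid-depleted diet (2 as reported), 0 for the region in Hr96[1], 0 for the lipid-depleted diet in each region, 0 in anterior and 1 in posterior Hr96[1] (2 each as reported) and 0 in posterior Hr96[2x]. With no filter the region count in Hr96[1] was 0. Quantile normalization gave 2 for the lipid-depleted diet in the posterior midgut and over both regions, and 1 in anterior Hr96[2x], as did a mean of at least 5 scaled FPKM. Without control replicate 1 in both regions the counts were 0 and 2 for the lipid-depleted diet (posterior, both), 1 for high cholesterol over both, and 1 each in anterior and posterior Hr96[1], and 0 of 30 ratio tests passed (13 as reported). Leaving out 1 library gave 1 to 2 calls for the region on the lipid-depleted diet, 0 to 1 for the region on high cholesterol and in Hr96[1], 0 to 1 for the lipid-depleted diet in each region, 1 to 2 for Hr96[1] in each region and 0 to 1 for Hr96[2x] in each region. The cause was not tested.

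With the replicate number as a block over all groups, the region count in Hr96[1] was 0 and the count in anterior Hr96[2x] 1. With a block within each condition, chosen after seeing the data, the region counts were 3 in Hr96[1] and 3 on high cholesterol. Same-numbered pairs correlated by over 0.1 in 3 of 3 cases in Hr96[1] and in 2 of 3 on high cholesterol. The depth of the libraries is unknown, and the counting error within a library was widest for pen-2.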
